A study of Caenorhabditis elegans with 2 samples.

Results

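The histone genes of Caenorhabditis elegans were taken as the protein-coding genes of the WBcel235 assembly (ce11) whose symbol is his- followed by a number. There were 72 of them among 19973 protein-coding genes on the 6 nuclear chromosomes, with 2 on chromosome I, 14 on II, 3 on III, 22 on IV, 27 on V and 4 on X. Every gene of that symbol was kept, whatever its binding. By the RefSeq product names, 17 encode histone H2A, 16 encode H2B, 15 encode H3, 16 encode H4, 5 encode H3.3 or H3.3-like variants and 1 (his-24) encodes a linker histone H1. The remaining 2, his-39 and his-73, are annotated only as proteins with a histone domain, and his-73 is 141 bases long.

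The data were ChIP-seq peak lists for BED-1, a protein named for its BED-type zinc finger. Chromatin came from 2 biological replicates of 1 group: whole young adults of strain RW12201, collected at 63 hours, after hatchlings from bleached adults had been held in starvation at the L1 stage. In this strain the genome-edited bed-1 gene on chromosome V carries TY1, EGFP and 3xFLAG tags (bed-1::TY1::EGFP::3xFLAG), and the tagged protein was precipitated with an antibody to GFP. There was no second genotype, stage or treatment, so no comparison between conditions could be made, and whole animals mix germline and somatic chromatin. A control experiment was not analysed here, and the lists hold no read counts, so the depth behind each peak is unknown.

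Core histones H2A, H2B, H3 and H4 form the protein spool of the nucleosome, and the linker histone H1 binds where DNA enters and leaves it. Metazoan genomes carry core histone genes in many copies, mostly in clusters, which are transcribed chiefly while DNA is being replicated and whose messenger RNAs end in a stem-loop in place of a poly(A) tail. Variants such as H3.3 are usually encoded by genes that stand alone, and are put into chromatin outside replication as well. In C. elegans, H2A and H2B genes, and likewise H3 and H4 genes, often lie head to head and share a short spacer that holds both promoters.

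Of the 72 genes, 62 lay in 31 head-to-head pairs, 16 of them H2A with H2B, 14 H3 with H4, and 1 (his-67 with his-68) H4 with H2A. The spacers between the 5′ ends ran from 227 to 368 bases, with a median of 258 bases, and 16 of the 31 were letter for letter the same as another pair's spacer. Because 65 of the 72 annotated starts lie within 3 bases of the start codon, a spacer here runs between coding starts rather than mapped transcription starts in most pairs. The spacers below, read from the RefSeq genome of WBcel235, are shown because they differ in whether a sequence read from them can be placed at only 1 locus. Each is written with its H3 gene to the left and its H4 gene to the right, and capitals mark bases that lie in at least 1 word of 31 bases found only once in the genome, counting both strands.
his-49 and his-50 (chrV:8847705-8847942, minus strand): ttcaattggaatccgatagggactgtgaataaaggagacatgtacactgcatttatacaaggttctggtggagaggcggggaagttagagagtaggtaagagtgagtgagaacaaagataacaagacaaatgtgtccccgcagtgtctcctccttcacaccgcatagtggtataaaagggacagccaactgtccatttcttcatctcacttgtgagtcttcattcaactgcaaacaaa
his-17 and his-18 (chrV:8897993-8898227, plus strand): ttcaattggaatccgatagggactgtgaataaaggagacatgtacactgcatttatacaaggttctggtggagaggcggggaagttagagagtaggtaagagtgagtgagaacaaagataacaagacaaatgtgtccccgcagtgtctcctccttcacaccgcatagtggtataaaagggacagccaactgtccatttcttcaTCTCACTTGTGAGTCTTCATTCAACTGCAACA
his-6 and his-5 (chrV:8534978-8535213, plus strand): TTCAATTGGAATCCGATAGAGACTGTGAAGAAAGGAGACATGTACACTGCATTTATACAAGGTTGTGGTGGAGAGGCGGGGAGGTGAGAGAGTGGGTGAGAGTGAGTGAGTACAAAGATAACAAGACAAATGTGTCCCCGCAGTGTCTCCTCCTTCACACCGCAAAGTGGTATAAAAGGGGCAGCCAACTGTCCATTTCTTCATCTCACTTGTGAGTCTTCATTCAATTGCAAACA
his-40 and his-38 (chrX:7309876-7310109, minus strand): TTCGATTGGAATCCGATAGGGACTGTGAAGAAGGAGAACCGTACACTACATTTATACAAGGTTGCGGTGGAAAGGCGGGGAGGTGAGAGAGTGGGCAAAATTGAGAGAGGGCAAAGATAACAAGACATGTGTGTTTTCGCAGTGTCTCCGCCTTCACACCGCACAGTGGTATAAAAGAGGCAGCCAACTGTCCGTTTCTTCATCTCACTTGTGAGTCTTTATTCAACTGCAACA

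The spacer of his-27 and his-28 (chrV:8889800-8890037) was identical to that of his-49 and his-50. The spacer of his-17 and his-18 differed from it by an edit distance of 3 bases (98.7% identity), and only 32 of its bases, next to the H4 gene, lay in a word found once. The spacer of his-6 and his-5 was 94.5% identical to it and that of his-40 and his-38 86.1% identical. In both, all bases were marked, though 1 word found once is enough to mark a base. The share of words found once was 79.1% in the spacer of his-6 and his-5 and 100% in that of his-40 and his-38. Below are 2 spacers between an H2A gene (left) and an H2B gene (right), with capitals used in the same way.
his-51 and his-52 (chrV:8850172-8850463, plus strand): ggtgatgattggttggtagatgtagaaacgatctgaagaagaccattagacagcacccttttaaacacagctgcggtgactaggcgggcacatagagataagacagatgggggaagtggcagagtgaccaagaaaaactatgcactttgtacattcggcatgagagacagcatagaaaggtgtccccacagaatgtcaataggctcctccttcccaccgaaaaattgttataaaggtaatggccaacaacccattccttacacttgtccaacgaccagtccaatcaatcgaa
his-3 and his-4 (chrV:16040516-16040807, minus strand): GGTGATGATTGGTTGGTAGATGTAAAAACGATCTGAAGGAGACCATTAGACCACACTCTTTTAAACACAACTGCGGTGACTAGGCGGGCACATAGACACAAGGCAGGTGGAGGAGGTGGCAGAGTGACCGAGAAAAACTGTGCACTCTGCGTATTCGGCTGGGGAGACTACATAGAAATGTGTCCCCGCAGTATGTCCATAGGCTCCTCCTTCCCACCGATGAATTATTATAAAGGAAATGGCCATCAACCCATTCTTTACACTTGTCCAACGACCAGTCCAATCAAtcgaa

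The first of these 292-base spacers occurs at 4 pairs on chromosome V and has no base in a word found once, while 287 of the bases of the second do, although the pair is 88.7% identical. Between the H3-H4 and the H2A-H2B spacers printed here, identity was between 53.4% and 56.5%.

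For each gene the strongest ranked peak was sought whose summit lay within 1000 bases of an annotated start, a distance called the reach here. Ranked peaks are the authors' 120637 candidate peaks for both replicates together, each with a signal (the authors' value per peak, used only to order peaks within 1 list) and an irreproducible discovery rate (IDR), a measure of how poorly the rank of a peak holds between 2 sets of peak calls. A peak was said to pass at an IDR of 0.01 or less, as 704 ranked peaks did. The authors' final list held 589 peaks.

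A ranked peak lay in reach of 46 histone genes (63.9%), and 26 (36.1%) had none, where 9.38% of all protein-coding genes had none. The 46 genes shared 29 distinct strongest peaks, since both genes of a pair usually took the same one. Their signal had a median of 40.5 (quartiles 33.9 and 43.6, range 15.3 to 87.0), beside a median of 35.4 (quartiles 27.6 and 44.3) over the 18099 protein-coding genes with a peak. Of the 46, 32 were above the median of all genes, 11 were above its upper quartile and 7 were below its lower quartile. Only 1 histone gene, his-24, had a strongest peak that passed, and the same gene was the only 1 with a summit of the final list in reach, where 1.66% of all protein-coding genes passed and 1.64% had a final-list summit.

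**Figure D1:**
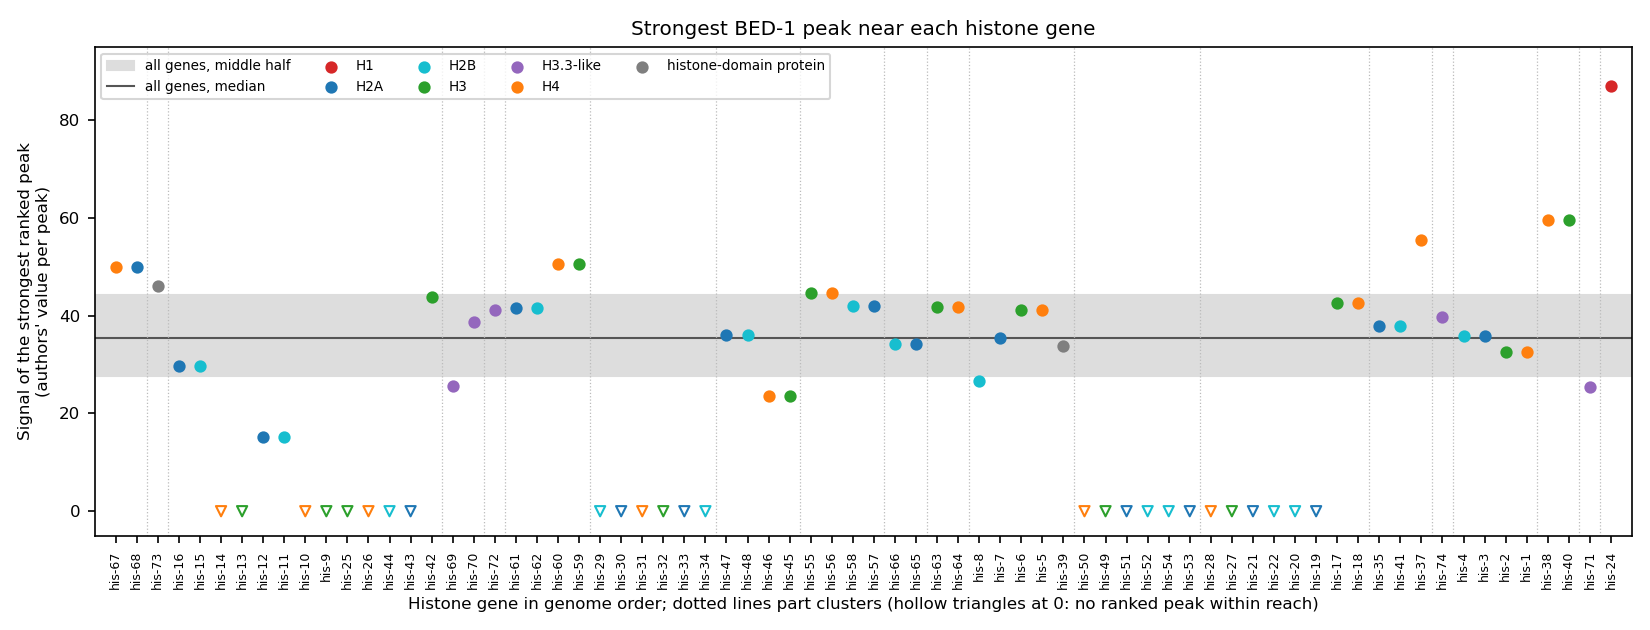
Signal of the strongest ranked peak (vertical axis, the authors' value per peak) for the 72 histone genes in genome order (horizontal axis), coloured by the histone encoded; hollow triangles at 0 are the 26 genes without a ranked peak in reach. The grey band spans the quartiles of all protein-coding genes, 27.6 to 44.3, and the line is their median, 35.4; his-24 stands highest at 87.0, and the triangles fall in 4 runs of neighbouring genes.

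The linker histone gene his-24, the only H1 gene among the 72, lies at chrX:14490094-14491119 on the plus strand. Its strongest peak spanned chrX:14490608-14490867 with the summit at 14490738, which is 644 bases past the start, in the second exon and in coding sequence. The signal was 87.0, higher than at 99.4% of genes with a peak, and the IDR was 0.00179. In replicate 1 alone the gene's strongest peak had a signal of 31.8 (percentile 92.9 of genes with a peak in that list) and an IDR of 0.236, and in replicate 2 alone a signal of 55.6 (percentile 99.6) and an IDR of 0.0183. The 3 summits lay at 14490738, 14490737 and 14490740, so both replicates placed the peak at the same spot, but it was in the final list of neither replicate alone. The peak was also in the authors' conservative final list, with an IDR of 0.00429 in the ranked list behind it. The sequence around this summit is shown because it is the one histone sequence under a passing peak; capitals again mark bases in words found once, and it is the coding strand.
his-24 summit (chrX:14490663-14490813, plus strand): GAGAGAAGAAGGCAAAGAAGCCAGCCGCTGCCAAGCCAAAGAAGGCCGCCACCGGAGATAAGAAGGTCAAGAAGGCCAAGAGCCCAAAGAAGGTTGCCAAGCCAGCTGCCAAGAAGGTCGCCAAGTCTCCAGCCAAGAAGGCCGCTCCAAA

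All 151 bases lay in words found once, and 97.7% of the words within 100 bases of the summit were unique, the share for the whole reach being 99.5%. The 201-base window around the summit was 58.2% G or C, the highest of the 29 distinct strongest summits of histone genes (median 45.8%, lowest 29.9%), where the median over all ranked peaks was 38.3%. The part of GC content in the signal was not tested. A further peak of the gene had its summit at 14490049, 45 bases before the start, with a signal of 45.4 and an IDR of 0.0299. Another, at 14490251 in coding sequence, had a signal of 8.75. A noncoding RNA gene on the opposite strand, M163.16 (chrX:14490327-14490548), lies inside his-24 but ends before the passing peak begins.

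Among the core histone genes, those for H4 and H3 held the highest values. The pair his-38 (H4) and his-40 (H3) on X shared a peak with a signal of 59.5 and an IDR of 0.0382, whose summit at 7310317 lay in the coding exon of his-40, 207 bases past its start. The pair's spacer is fully unique, but only 42.1% of words around this summit are. Replicate 1 alone gave this pair 43.0 (percentile 98.9), the highest value of any histone gene in that list, and replicate 2 gave 25.1 (percentile 66.2). The replicate summits lay at 7310246 and 7310335, on either side of the pooled one.

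his-37, an H4 gene on V with no head-to-head partner, had a signal of 55.5 and an IDR of 0.0416 at a summit 129 bases before its start, in fully unique sequence. Its values were 26.3 (percentile 80.2) in replicate 1 and 45.6 (percentile 98.8) in replicate 2. The pair his-60 (H4) and his-59 (H3) on IV shared a peak of 50.6 at 7487891, inside the coding sequence of his-60, with an IDR of 0.291. Both replicates held a high peak near this pair, at 31.8 (percentile 93.0) and 41.1 (percentile 97.6), but the replicate 1 summit lay at 7488937 and the replicate 2 summit at 7487874, more than 1000 bases apart. The pair his-67 (H4) and his-68 (H2A) on I shared a peak of 49.9 with an IDR of 0.0377, at 15.9 (percentile 24.8) in replicate 1 and 37.2 (percentile 95.7) in replicate 2. High pooled values thus came with different replicate patterns, and none of these genes passed at an IDR of 0.01.

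By the histone encoded, H4 genes with a peak had a median signal of 43.5 (10 of 16 genes, 8 above the median of all genes) and H3 genes 42.5 (9 of 15, 7 above). H2A genes had a median of 36.0 (10 of 17, 7 above) and H2B genes 35.8 (9 of 16, 5 above). The H3 and H4 ranges were both 23.6 to 59.5, the H2A range was 15.3 to 49.9 and the H2B range 15.3 to 42.1, so the classes overlapped widely. H3 genes share peaks with H4 genes, and H2A genes with H2B genes, so these are not 4 independent sets and no test was made. All 15 H3 genes encode 1 protein and all 16 H4 genes encode 1 protein, from 11 and 12 distinct coding sequences.

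The other clusters held the following highest values. On IV, his-55 with his-56 reached 44.6, his-63 with his-64 41.8, his-61 with his-62 41.5, his-58 with his-57 42.1, his-47 with his-48 36.1 and his-66 with his-65 34.3. The replicates stood far apart at his-63 and his-64, at 12.9 (percentile 10.8, summit 11407070) in replicate 1 and 39.8 (percentile 97.1, summit 11406282) in replicate 2. On V, his-17 with his-18 reached 42.5, his-6 with his-5 41.2, his-35 with his-41 37.9, his-4 with his-3 35.8, his-7 35.5, his-39 33.8 and his-2 with his-1 32.7. On II, his-42 (H3), at the end of its cluster, reached 43.9, and his-16 with his-15 at the other end 29.8. On III, the H3.3-like genes his-70 and his-69 were at 38.7 and 25.6. The lowest values were 15.3 for his-12 (H2A) and his-11 (H2B), with an IDR of 0.680 and no peak in either replicate's own list, 23.6 for his-46 and his-45, 25.3 for his-71, 25.6 for his-69 and 26.7 for his-8.

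A gene was called clustered where another his- gene had its 5′ end within 5000 bases, and single otherwise. All 5 single genes had a peak, with signals of 87.0 (his-24), 46.0 (his-73), 41.2 (his-72), 39.8 (his-74) and 25.3 (his-71) and a median of 41.2. Of the 67 clustered genes, 41 had a peak, from 24 distinct peaks, with a median of 38.7 (range 15.3 to 59.5), and 26 had none. The difference of medians, clustered minus single, was -2.43, and 4 of the 5 single values lay inside the range of the clustered ones. It changed sign, to 1.28, when only peaks whose summit lies in at least 95% unique sequence were kept (12 clustered and 4 single genes). Sequence moved with this division: the share of words in reach that occur once had a median of 99.5% for single genes (81.6% to 99.9%) and of 26.0% for clustered genes (0% to 99.9%).

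The 3 single H3.3-type genes lay between 25.3 and 41.2, with his-72 and his-74 inside the quartiles of all genes and his-71 below them. his-72, which encodes H3.3 type 2, had its summit at 12368897 in an intron, 153 bases past its start. Replicate 1 alone had a signal of 20.4 at that place (12368895), but the strongest peak of replicate 2, at 31.2, lay upstream of the gene at 12369585. his-71, which encodes H3.3 type 1, had its pooled peak at position -933, just inside the reach. Replicate 1 had no peak in reach of it, and the strongest peak of replicate 2, at 12.03, was a different one, 469 bases past the start. his-74, H3.3-like type 2, had a summit 744 bases past its start, in the 5′ untranslated region of the neighbouring gene ccch-3, with a signal of 31.8 in replicate 1 and none in replicate 2. The summit at his-73 lay 6 bases past its start and also in the 5′ untranslated region of W09H1.4. Replicate 1 had a signal of 16.9 at that place, while the strongest peak of replicate 2, at 28.6, lay 566 bases past the start. None of these 4 genes passed, with IDR values from 0.108 to 0.358.

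**Figure D2:**
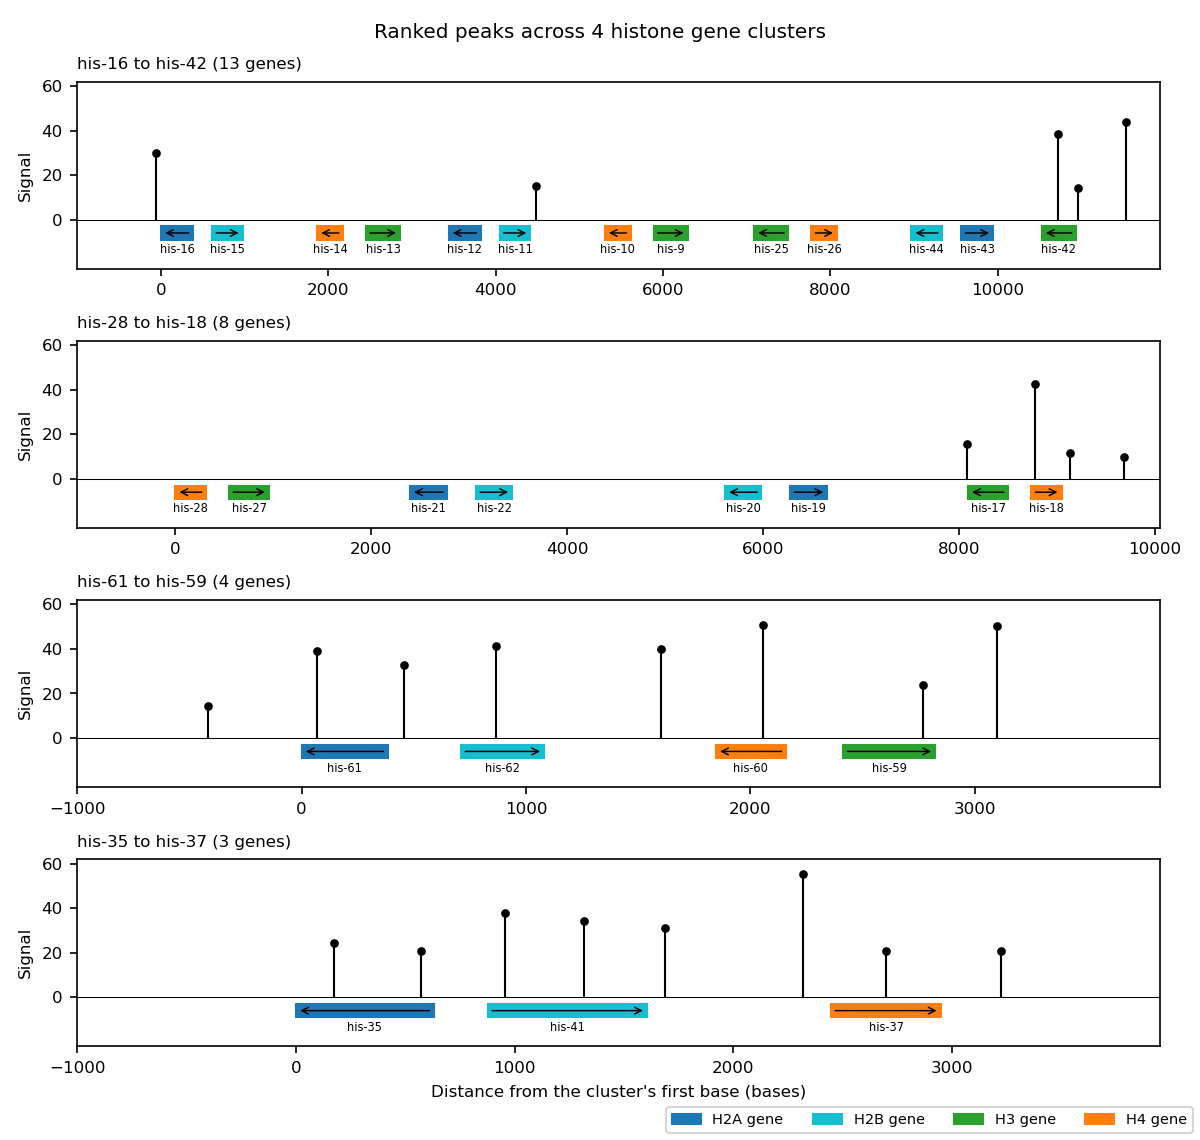
Ranked peaks over 4 clusters: each stem stands at a summit with its signal (vertical axis, the authors' value per peak) by distance in bases from the first base of the cluster (horizontal axis), and coloured boxes with arrows are the histone genes and their direction. Peaks were spread along his-61 to his-59 and his-35 to his-37, while 6245 bases of the 13-gene cluster and the first 6 genes of the his-28 to his-18 cluster had no summit.

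The 26 genes without a ranked peak in reach fell in 4 places. On II they were his-14, his-13, his-10, his-9, his-25, his-26, his-44 and his-43, inside the 13-gene cluster at chrII:13817760-13828697. On IV they were his-29, his-30, his-31, his-32, his-33 and his-34, the whole of that cluster. On V they were his-50, his-49, his-51, his-52, his-54 and his-53, again a whole cluster, and his-28, his-27, his-21, his-22, his-20 and his-19, 6 of the 8 genes of the next. By histone these were 7 H2A, 7 H2B, 6 H3 and 6 H4 genes, with no H1 or H3.3-like gene. The nearest ranked summit was from 1137 bases (his-10) to 7787 bases (his-50) away, while the farthest summits still counted lay at position -957 (his-58) and -933 (his-71).

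These genes were mostly sequence copies. Of the 26, 24 have another histone gene with an identical coding sequence, against 12 of the 46 genes with a peak. The largest identical sets, his-51, his-53, his-21 and his-19 (H2A) and his-52, his-54, his-22 and his-20 (H2B), had no peak at any copy. The identical H3 genes his-13, his-9 and his-25 and the identical H4 genes his-14, his-10 and his-26 had none either. The 72 genes hold 50 distinct coding sequences in all. The share of unique words in reach had a median of 0% (0% to 87.1%) for genes without a peak and of 68.1% (1.57% to 99.9%) for genes with one.

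Other protein-coding genes in equally repeated sequence also often lacked a peak. Where under 20% of words in reach were unique, 22 of 29 histone genes (75.9%) and 192 of 252 other genes (76.2%) had no ranked peak. From 20% to 40% the shares were 18.2% of 11 histone genes and 22.3% of 112 others. At 80% to 95% they were 1 of 10 and 8.17% of 2925, and above 95% they were 0 of 8 and 8.21% of 15291. Among other genes with a peak the signal was low in repeated sequence, with a median of 20.4 in the lowest band (60 genes) and 26.7 in the next. For histone genes these medians were 29.8 and 36.1, beside 35.4 over all genes. The 7 histone genes of the lowest band ran from 15.3 (his-12 and his-11) to 44.6 (his-56). Within 100 bases of the summit, 94.2% of words were unique for his-56, 100% for his-58 (42.1), 84.8% for his-48 (36.1) and 80.1% for his-15 (29.8). The shares were 3.51% for his-46 (23.6) and 18.1% for his-12 and his-11. The higher values of this band thus came from peaks in mostly unique sequence. How far the lack of unique sequence sets the lack of peaks was not tested, and a gene in repeated sequence without a peak cannot be told apart from one where reads could not be placed.

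**Figure D3:**
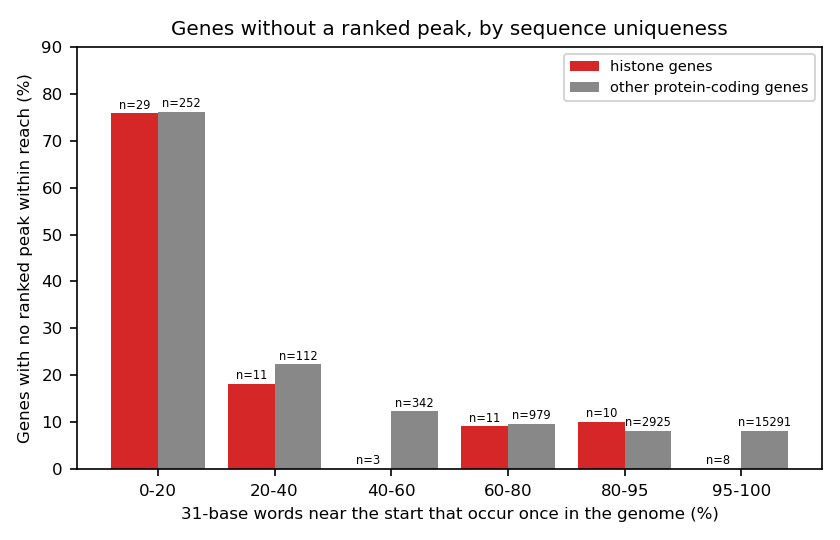
Share of genes with no ranked peak in reach (vertical axis, percent) by the share of 31-base words in reach that occur once in the genome (horizontal axis, percent), for histone genes in red and other protein-coding genes in grey, with the number of genes above each bar. In the lowest band the shares were 75.9% and 76.2%; the histone bars of 3 to 11 genes are coarse.

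**Figure D4:**
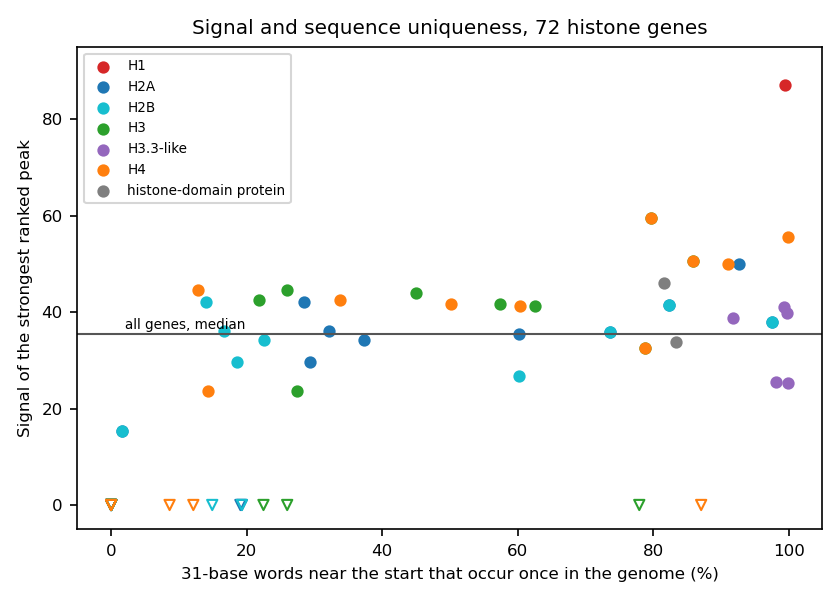
Signal of the strongest ranked peak (vertical axis, the authors' value per peak) against the percent of 31-base words in reach that occur once (horizontal axis) for the 72 histone genes, coloured by histone, with genes of 1 pair often on the same point; triangles at 0 have no ranked peak. All but 2 of the triangles, his-31 and his-32, lie below 40% on the horizontal axis, and the line is the median of all genes, 35.4.

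The exceptions were his-31 (H4) and his-32 (H3) on IV, with 87.1% and 77.9% unique words in reach and a fully unique spacer, yet no ranked peak for both replicates together. Each replicate alone did list a peak near this pair, at 28.7 in replicate 1 (percentile 87.3, IDR 0.0891, summit 8334430) and at 28.9 in replicate 2 (percentile 81.7, IDR 0.549, summit 8333335). The replicate 1 summit lay inside his-32 and the replicate 2 summit beyond the end of his-31, so these were different peaks. The cluster lay in a stretch of 28035 bases without a ranked summit, chrIV:8329746-8357779, which is 74.4% unique and holds the starts of 11 other protein-coding genes, none with a ranked peak in reach. Only 47 of the 120631 intervals between neighbouring summits in the genome were as long, the median interval being 598 bases. Replicate 1 alone had 10 summits in the stretch and replicate 2 had 1. What leaves this stretch empty in the pooled list was not tested.

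On V the cluster of his-50 to his-53 lay in a stretch of 42995 bases without a summit, chrV:8812497-8855490, which is 1.86% unique and had no summit in any of the 4 ranked lists. Only 10 intervals in the genome were as long. The next cluster's stretch of 15449 bases had 0% unique words, yet replicate 2's own list held 1 summit in it, with a signal of 34.5. The stretch ended at his-17 and his-18. That pair had the peak of 42.5, with its summit at 8898269, 41 bases past the start of his-18, where 11.7% of words were unique; in the printed spacer, the capitals begin just before this gene. On II, the stretch of 6245 bases from his-11 to his-42 was 10.7% unique and held the starts of 6 histone genes. Replicate 1, replicate 2 and the list behind the conservative list each held 1 summit there, with signals of 19.4, 10.8 and 22.3. The genes his-14 and his-13 lay outside it, between the ranked summits at 13817703 and 13822238. The second of these summits, with a signal of 15.3 and an IDR of 0.680, parts them from that stretch.

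In the 31 spacers, which hold the promoters of 62 genes, 7 ranked summits were found. The strongest, at 8535114 in the printed spacer of his-6 (H3) and his-5 (H4), had a signal of 41.2 and an IDR of 0.0805, and the replicates placed it at 8535112 (20.2) and 8535118 (28.1). The others were 36.2 for his-63 and his-64, 32.7 for his-61 and his-62, 25.9 for his-67 and his-68, 22.1 for his-2 and his-1, 19.8 for his-4 and his-3 and 15.9 for his-8 and his-7. All 7 lay among the 11 spacers with at least 75% unique words, and none of the other 20 spacers, 17 of them with no unique word, held a summit. This is 8.38 summits per 10 kb over all spacers but 22.9 per 10 kb over those 11, where the ranked list has 12.03 per 10 kb of genome. The 11 rest on only 7 summits, and the 75% limit was set after the spacers had been seen. The printed spacer of his-40 and his-38 is fully unique and held none, and that pair's strongest peak lay in the coding exon of his-40.

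Summits of the strongest peaks had no fixed place relative to the start. They lay upstream for 23 genes and downstream for 23, at a median distance of 465.5 bases, and within 200 bases for 13 genes. For 14 genes the summit was in the gene itself (coding exon in 12), for 10 it was in another histone gene, and for 22 it was in none. With short genes packed in pairs, a peak of 260 bases can cover a coding end, a spacer and part of the partner, so the gene that a shared peak belongs to cannot be told apart.

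For each kind of spacer, 1 of the 10-base words held by the most distinct spacers was looked up. It was 1 of 15 equally common words for H3-H4 and 1 of 6 for H2A-H2B, the first by alphabet. The other words as common were not looked up. TGTGAGTCTT (other strand AAGACTCACA) was in 13 of the 14 H3-H4 spacers, the exception being his-31 with his-32, and in 0 of the 17 other spacers. It lies near the H4 gene, at 90.3% to 92.6% of the spacer's length from the H3 gene, and can be read in all 4 H3-H4 spacers printed above. In the 250 bases before the start, on either strand, 28 of 19973 genes (0.140%) had it and 23 of these were histone genes, 16 with a ranked peak and 7 without. AAATGTGTCC (other strand GGACACATTT) was in 8 of 16 H2A-H2B spacers and also in 9 of the 15 others, so it did not mark that kind. TATAAA on either strand, the core of the TATA box, was in 24 of the 31 spacers and before 47 of the 72 histone genes (65.3%), against 35.2% of all genes. The 250-base windows of a head-to-head pair overlap, so 1 word can count for both genes, and 16 of the 31 spacers are copies. The histone genes counted are thus not independent. The first 2 words were picked after the spacers had been compared, and a window can hold more than 1 of the 3. A shared word describes the sequence and marks no binding site.

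The replicates' own ranked lists, of 58090 and 61509 peaks, can be compared by rank only. Replicate 1 had a peak in reach of 37 histone genes and none for 35, where 26.2% of all genes had none. Replicate 2 had one for 39 and none for 33, where 24.7% of all genes had none. The median signal of histone genes was 20.4 in replicate 1, beside 20.1 over all genes, with 25 of 37 above. It was 26.9 in replicate 2, beside 21.9, with 30 of 39 above. In both replicates, 20 genes were above the median of all genes. Of the 35 genes with a peak in both replicates, 14 had summits within 130 bases of each other, namely his-24, his-37, his-69 and the pairs his-38 with his-40, his-67 with his-68, his-17 with his-18, his-55 with his-56 and his-6 with his-5, and his-4. For the rest the strongest peaks of the replicates had their summits farther apart. The counts of 20 and 14 were not made over all protein-coding genes, so whether they are low or high is unknown. Both genes of a pair with a shared peak are counted. In 24 of the 26 genes without a pooled peak, neither replicate had one.

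**Figure D5:**
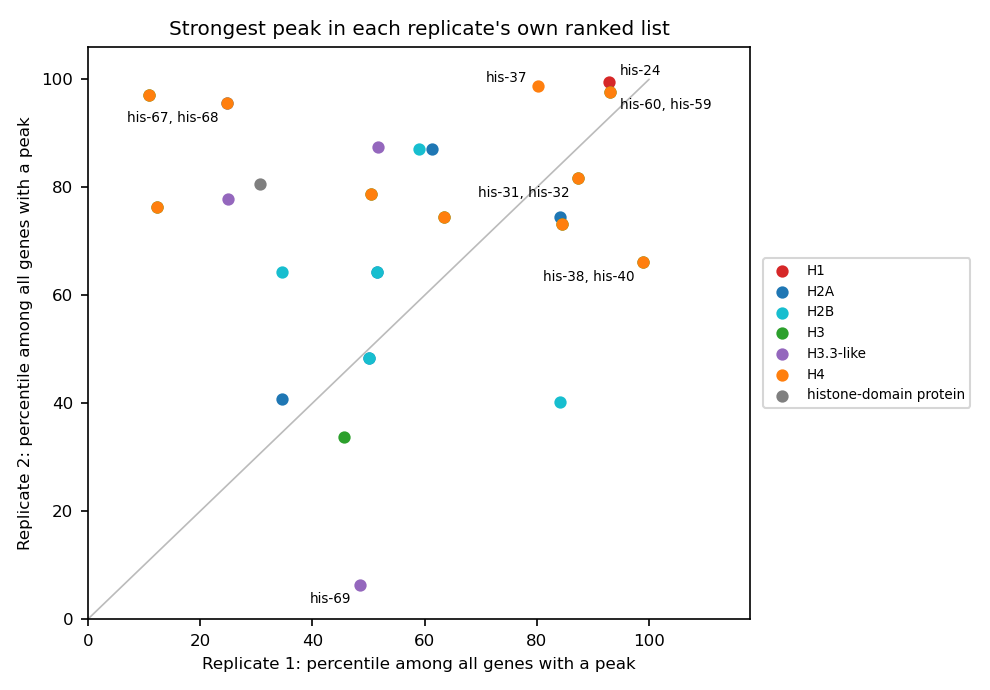
Percentile of the strongest peak's signal among all genes with a peak, in replicate 1 (horizontal axis) and in replicate 2 (vertical axis), for the 35 histone genes with a peak in both, coloured by histone, with genes of 1 pair often on the same point; the grey line marks equal percentiles. his-24 is high in both (92.9 and 99.6), his-38 and his-40 are higher in replicate 1 (98.9 against 66.2), and his-67 and his-68 are higher in replicate 2 (24.8 against 95.7).

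A list of 25 other genes of histone biology was looked up in the same way, covering linker histones, variants, chaperones and assembly factors. All 25 had a ranked peak, where 90.6% of all protein-coding genes had one. Their median signal was 43.3 (9.57 to 79.0), and 18 were above the median of all genes. A passing peak, also in the final list, lay at 2 of the 25, where 1.66% of all protein-coding genes passed and 1.64% had a final-list summit. The linker histone gene hil-3, on X, had a summit at 8159188, 19 bases past its start in the 5′ untranslated region, with a signal of 79.0 and an IDR of 0.00371, at 45.7 in replicate 1 and 30.8 in replicate 2. hcp-3, which encodes the centromeric H3 variant CENP-A, had a summit on III at 9617142, at position -672, with a signal of 70.6 and an IDR of 0.00803, at 44.3 and 26.9.

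The other linker histone genes did not pass: hil-4 was at 58.3, hil-2 at 54.8, hil-5 at 45.5, hil-1 at 43.5, hil-7 at 35.6 and hil-6 at 34.98. With his-24 and hil-3, 2 of the 8 linker histone genes passed, beside 1.66% of all protein-coding genes. The H2A variant gene htz-1 was at 37.99. Among chaperones and assembly factors, chaf-2 (a chromatin assembly factor subunit) was at 62.4 with an IDR of 0.0511 and lin-53 (a histone-binding WD-repeat protein) at 58.0 with an IDR of 0.0374. The stem-loop binding protein gene cdl-1, which acts on the replication-dependent histone messenger RNAs, was at 31.5, below the median of all genes, and the H3-H4 chaperone gene asfl-1 at 9.57 was the lowest of the 25. Between 77.4% and 100% of the words in reach were unique for each of the 25 genes.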

How the data were processed

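Per the labels, BED-1 tagged with GFP was precipitated from 2 replicate samples of young adults, and the authors deposited peak lists on ce11. These are a ranked list for each replicate, ranked lists for both replicates together and the final lists drawn from them. No source used here names the aligner or the peak caller. In the deposited lists, column 7 is a signal per peak whose scale is not stated, column 5 is a score derived from the IDR, and column 12 is the −log10 of the global IDR. A peak passed at an IDR of 0.01 or less. Depth is unknown, so no counting intervals are given.

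Starts came from Ensembl release 115 and were matched to RefSeq by WormBase ID. RefSeq symbols were used because Ensembl gives identical copies 1 symbol, so that the 72 genes have 50 Ensembl symbols. For each gene the strongest ranked peak with a summit within 1000 bases of a start was taken. Uniqueness is the share of 31-base words found once in the genome on either strand. Identity is 1 minus edit distance over the longer length. Everything was computed with Python 3.11.15, pandas 2.3.3, Biopython 1.88 and edlib 1.3.9.post1, and the assignment was checked on simulated data.

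Named with values were the genes with passing or final-list peaks, the 10 highest and 5 lowest, all single genes, all genes without a peak and the highest of each cluster. The genes and lists were chosen with earlier results of these data known. Histone genes share peaks and sequence, so no test over them was made. Alternatives covered the IDR threshold, the reach, other lists, 1 replicate at a time, the cluster distance, distinct peaks and unique summits.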

Additional observations from a re-analysis of the deposited data

How the results depend on the processing

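The count of histone genes whose strongest peak passed was 1 (his-24). It was 6 at an IDR of 0.05 (his-67, his-68, his-37, his-38, his-40 and his-24, where 6.83% of all genes passed). It was 0 at an IDR of 0.001 (0.255% of all genes) and 0 with a reach of 500 bases (0.986%), since the summit of his-24 lies 644 bases from the start. Without 1 replicate it ranged from 0 to 0 (0.290% to 0.300% of all genes). It stayed 1 with the outermost 5′ end (1.43% of all genes) and in the ranked list behind the conservative list (1.47%). The count with a final-list summit was likewise 1, and was 0 at 500 bases (0.976% of all genes). It was from 0 to 0 without 1 replicate (0.285% to 0.290%), and was 1 in the conservative list (1.48%). The median signal of 40.5 fell to 32.7 with genes without a peak counted at 0, and was between 36.2 and 41.5 under the other alternatives. The median of all genes was not computed under these alternatives, so they cannot be set beside its value in the main setting. The clustered minus single difference of -2.43 was -4.97 at 500 bases and changed sign to 1.28 with unique summit windows only; without 1 replicate it ranged from -5.72 to -2.96. The place of the his-24 summit accounts only for the counts of 0 at 500 bases. The cause of the other moves was not tested. The count of 26 genes without a ranked peak (9.38% of all genes) had alternatives chosen after seeing the data. It was 23 in the list behind the conservative list (9.23% of all genes), 32 at 500 bases (18.5%) and 18 at 2000 bases (6.65%). It was 26 from the outermost 5′ end (10.2%), and 33 to 35 without 1 replicate (24.7% to 26.2%). No paired analysis was possible because both replicates belong to 1 group. Depth is unknown, so a gene without a peak is not shown to lack binding.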

Other observations

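In the ranked list behind the conservative list, 4 of the 26 histone genes without a pooled peak had one in reach. The copies his-9 and his-25, both H3 genes on II, shared a peak with a signal of 22.3 and an IDR of 0.372. The pair his-29 and his-30 on IV shared one with a signal of 13.6 and an IDR of 0.678. In the other direction, the single gene his-74, with a pooled signal of 39.8, had no peak in reach in that list.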
